A study of Mus musculus with 4 samples.

Results

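The genes considered here encode the proteins of the cytosolic ribosome, and CTCF and RAD21 peaks were read off at their starts in mouse limbs. They were chosen by name alone, as autosomal protein-coding genes of GENCODE M21 (GRCm38, the build called mm10) whose symbol is Rpl or Rps with a number and an optional letter a, l or x, together with the P proteins and Rpsa. This gave 76 genes of 20807 autosomal protein-coding genes. Of these, 72 encode standard subunits and 4 are paralogs that the naming also takes, namely Rpl3l, Rpl10l, Rpl39l and Rps27l. Rpl10, Rpl36a, Rpl39 and Rps4x lie on chromosome X and were left out, and Rps3a1 and Rpl36al fall outside the naming. The label fits the symbols, since 43 genes are named for the large subunit, 30 for the small subunit and 3 for the P proteins of the ribosomal stalk.

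CTCF and RAD21 were profiled by ChIPmentation, a form of ChIP in which adapters are added to the chromatin on the beads, in whole limbs of E12.5 embryos of strain B6CBAF1, a tissue of mixed cell types. The embryos of both antibodies were TgN(38-40)/Wt, that is hemizygous for an insertion of region CS38-40 in chromosome 10 from a single transgenic line, and also del(CS38-40)-/-, so that both native copies on chromosome 2 were missing. Each antibody had 2 replicates, with 23829 and 26264 CTCF peaks and 4102 and 14787 RAD21 peaks on mm10, and wild-type limbs of the same stage gave 20874 RAD21 peaks in 1 ChIP-seq library made for an earlier study. No wild-type CTCF list was used here, and the wild-type library differs from the transgenic ones in protocol as well as in genotype, which therefore cannot be told apart. The files hold peaks and no reads, so the depth is unknown and a start without a peak is a start below the threshold of the peak caller MACS2, not an unbound one.

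Ribosomal protein genes are among the most highly transcribed genes of growing cells. Their transcripts begin with a tract of pyrimidines, the 5' TOP motif, through which their translation is coordinated, and many of them carry small nucleolar RNAs in their introns. CTCF is a zinc finger protein that binds an asymmetric motif at insulators and at a subset of promoters. RAD21 is a subunit of the cohesin ring, which extrudes chromatin loops and halts at bound CTCF, preferentially when the motif points toward the oncoming ring. Cohesin is also found at some active promoters away from CTCF.

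CTCF peaks stood near the starts of 23 of the 76 ribosomal protein genes, or 30.3%, where any base of a peak within 1000 bp of the 5' end of the gene was counted. The same share over all autosomal protein-coding starts was 12.46%, or 2592 of 20807. In replicate 1 it was 18 genes, or 23.7%, beside 10.6% of all starts, and in replicate 2 it was 22 genes, or 28.9%, beside 11.3%. Both replicates had a peak at 17 of the 23 genes. Replicate 1 alone had one at Rpl7, and replicate 2 alone at Rpl23a, Rpl34, Rps19, Rps20 and Rps26. The replicates had both called the peak at 73.9% of the CTCF-positive ribosomal protein genes, and at 75.1% of the CTCF-positive starts of all genes. No test was made between the genes and the rest, because genes of 1 library are not replicates, and the shares are given as a description of these lists.

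On mm10, RAD21 counts were close to or below those of all starts. RAD21 peaks stood at 0 of the 76 genes in replicate 1, beside 1.12% of all starts, and at 4 in replicate 2, or 5.26%, beside 4.97%. Over both replicates these 4 genes stand beside 5.14% of all starts. In the wild-type library 5 genes had a RAD21 peak, or 6.58%, beside 10.0% of all starts. The 4 genes of the transgenic limbs, among them Rpl7, Rpl10a and Rpl11, all had a RAD21 peak in wild-type limbs as well, where Rpl37 was the fifth. All of these peaks overlapped by at least 1 bp a CTCF peak, which for the wild-type library too is one of the transgenic limbs. Counted so, RAD21 on CTCF was found at 5.26% of the genes in transgenic limbs, beside 4.16% of all starts, and at 6.58% in wild-type limbs, beside 6.23%. By replicate it was 0 genes in replicate 1, beside 0.961% of all starts, and the same 4 genes in replicate 2, beside 4.13%. RAD21 away from CTCF was found at 0 of the 76 genes in either genotype. Over all starts, RAD21 away from CTCF stood at 1.01% in transgenic limbs, with 0.154% in replicate 1 and 0.870% in replicate 2, and at 4.03%, or 839 starts, in wild-type limbs.

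**Figure D1:**
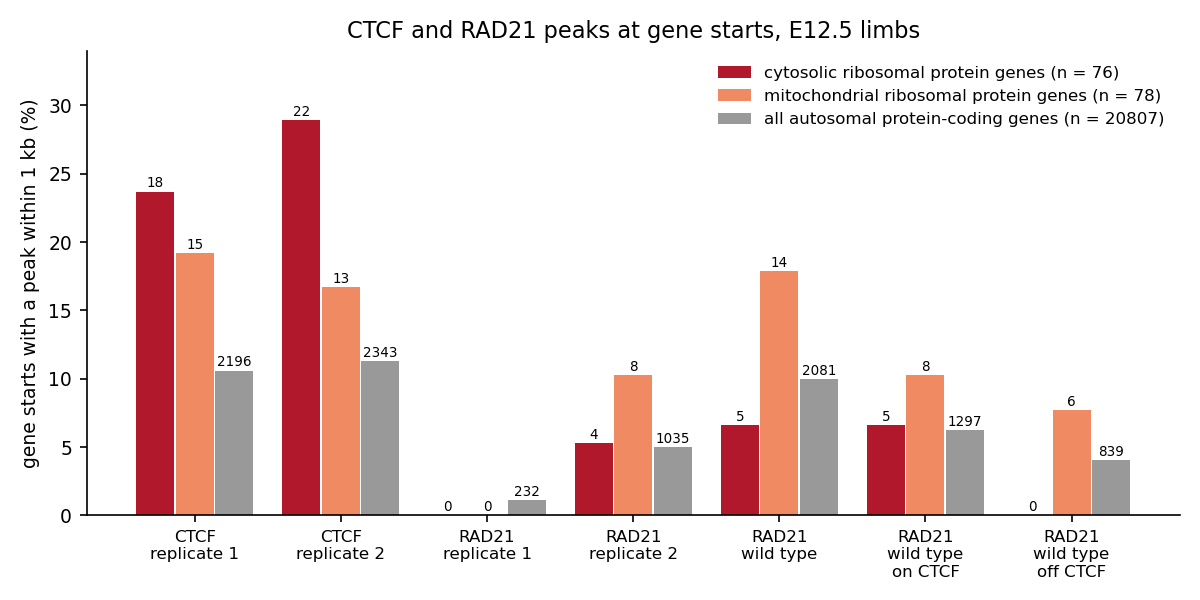
Share of gene starts with a peak within 1 kb (vertical axis, %) in each peak list and, for wild-type RAD21, on and off CTCF (horizontal axis), for cytosolic and mitochondrial ribosomal protein genes and all autosomal protein-coding genes, with the number of genes above each bar. CTCF stood at 18 and 22 of the 76 cytosolic ribosomal protein genes, and wild-type RAD21 off CTCF at 0 of them.

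Other translation genes were read off in the same way. Of 78 genes for proteins of the mitochondrial ribosome, 16 had a CTCF peak in either replicate, or 20.5%. RAD21 stood at 8 of them in transgenic limbs, or 10.3%, and at 14 in wild-type limbs, or 17.9%, of which 6 had a RAD21 peak off CTCF. Among 23 further translation genes, such as the elongation factor gene Eef1a1 and the ribosome-associated Rack1, 3 had a CTCF peak and 4 a wild-type RAD21 peak, 2 of them with one off CTCF. With these sizes a single gene moves a share by more than 1%, and the differences between the sets were not tested.

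By subunit, CTCF peaks were found at 14 of 43 large subunit genes, 8 of 30 small subunit genes and 1 of the 3 P protein genes, Rplp0. Over all starts the share with a CTCF peak was 12.46%. The RAD21 peaks belonged to large subunit genes, and 0 of the 30 small subunit genes had one in these lists, beside 5.14% of all starts in transgenic and 10.0% in wild-type limbs, shares at which 30 genes hold few peaks. On the custom genome RAD21 replicate 1 had a peak at Rps29, and with the starts of all coding transcripts Rps14 was added to the genes with RAD21, both of the small subunit. No peak of any list stood at 29 large subunit genes, 22 small subunit genes and 2 P protein genes, or 53 of the 76. Because each gene with RAD21 also had CTCF, these are the genes outside the 23 with CTCF. The share of all starts without a peak in any list is not given here. The 4 paralogs are among these 53, so the 23 genes with CTCF are all standard subunits. Just inside the limit of 1000 bp lay the CTCF peaks of Rpl34, at 846 bp from its start, and of Rpl7, at 967 bp. Just outside lay those of Rpl14, at 1148 bp, Rpl24, at 1432 bp, and Rps13, at 2022 bp.

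The CTCF peaks lay mostly just upstream of the start. In replicate 2 the summit was between 250 bp upstream and 50 bp downstream of the start at 14 of the 22 genes, or 63.6%, and in replicate 1 at 13 of the 18, or 72.2%. Over all starts with a CTCF peak these shares were 41.5% and 40.2%. The median summit of the ribosomal protein genes stood at -96.0 bp relative to the start in replicate 2 and at -110.0 bp in replicate 1, where negative values lie upstream. Peaks downstream of the start were rarer, at 361 bp in an intron of Rpl23a, 607 bp in an intron of Rpl3 and 886 bp in an exon of Rpl34. At Rpl7 the summit of replicate 1 lay at -1168 bp, in an exon of the neighbouring Rdh10, which encodes a retinol dehydrogenase, and 56 bp from the start of Rdh10. The Rpl7 peak thus lies at the start of another gene, and without Rpl7, a count chosen after the data were seen, 22 ribosomal protein genes had CTCF, 3 had RAD21 in transgenic limbs and 4 in wild-type limbs. Rpl3, whose peak also covers the start of another gene, is kept among the 22.

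**Figure D2:**
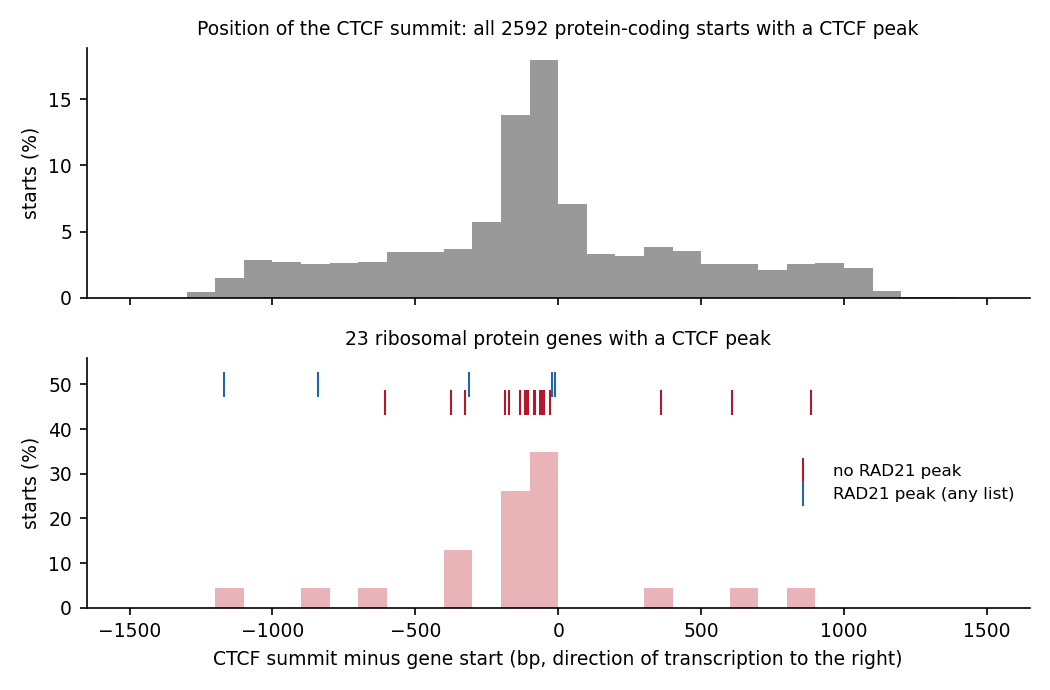
Distance from the gene start to the CTCF summit (horizontal axis, bp, transcription to the right) for all 2592 protein-coding starts with a CTCF peak (top) and the 23 ribosomal protein genes (bottom), as a share of starts (vertical axis, %) in bins of 100 bp. Strokes mark single ribosomal protein genes with and without a RAD21 peak in any list, and most of the CTCF summits stand in the bins just upstream of the start.

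A CTCF motif of 19 bp, searched within 50 bp of the summits, was found at 18 of the 23 genes. Over all genes it was found at 1891 of the 2592 starts with CTCF. Both counts take the better motif where both replicates had a peak. The motif model was learned from 2000 strong CTCF peaks, none of them at one of the 76 genes chosen by name. Peaks at ribosomal protein genes outside the naming, such as Rps3a1, were not left out. The model has the consensus NNNCCACNAGGGGGCGCNN, where N stands for a position without a preferred base. A motif was called above a score reached by 5% of the sequences flanking the peaks. In replicate 2, 72.7% of the 22 peaks of ribosomal protein genes held it, beside 66.5% of all CTCF peaks at protein-coding starts and 66.6% of all autosomal CTCF peaks. In replicate 1 these shares were 66.7%, 52.4% and 52.0%. The reference sequences of the motifs at 5 genes are shown, because these genes had the strongest CTCF peaks or a RAD21 peak. They are GRCm38 sequence on the strand of the motif, 5' to 3', with the motif in capitals. No flanks are shown at Rps24 and Rpl10a, where the stretch lies wholly or in part on annotated exons. At Rpl10a the motif ended 7 bp before the start of the gene, in an exon of a noncoding RNA on the other strand. The genes without a RAD21 peak come first, from Rpl36 to Rps24, followed by those with one.
Rpl36, chr17:56613310-56613358, plus strand: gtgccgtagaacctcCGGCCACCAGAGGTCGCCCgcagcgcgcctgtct
Rpl5, chr5:107900447-107900495, plus strand: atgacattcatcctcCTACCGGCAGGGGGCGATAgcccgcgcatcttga
Rps24, chr14:24487124-24487142, minus strand: GAGCCGCTAGATGGCGATC
Rpl10a, chr17:28328446-28328464, plus strand: CAGCCGCGTGGTGGCGCCC
Rpl11, chr4:136053463-136053511, minus strand: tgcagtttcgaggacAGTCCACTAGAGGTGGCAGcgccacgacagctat

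The motifs differed in how well they matched the model. That of Rpl36 scored highest of those shown, at the 89.5 percentile of the scores of replicate 2 peaks, followed by Rpl5 at the 71.0 percentile. The motif of Rps24 was at the 58.2 percentile and that of Rpl10a at 42.4. Rpl11, at the 36.7 percentile, had the weakest of those shown. The motif of Rps24 spans the start of the gene itself, from 1 bp upstream to 17 bp downstream, and was found under the summit of replicate 1 only. At Rpl5 it ended 22 bp before the start. Relative to the gene, 13 of the 18 motifs were on the strand of transcription, or 72.2%, beside 60.3% of the 1891 motifs at all starts with CTCF. No motif was called at Rpl7, Rpl34, Rpl37, Rps20 and Rps29.

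Among the ribosomal protein genes, the 5 strongest CTCF peaks of each replicate included those of Rpl5, Rpl36 and Rps24 in replicate 1, and of Rpl5, Rpl36 and Rpl10a in replicate 2, by fold enrichment, that is, how far the reads piled up at the summit exceeded what MACS2 expected around it. Folds are comparable within a list only. For genes taken singly, each is given with the share of peaks of its list that had a fold at or below it. At Rpl5, which binds the 5S ribosomal RNA together with Rpl11 and is mutated in Diamond-Blackfan anaemia, the CTCF folds were 9.83 and 17.6 in replicates 1 and 2, with 93.3% and 99.7% of the peaks at or below. Of all 26264 peaks of replicate 2 it was number 68 by fold. No RAD21 peak was called at Rpl5 in any of the 3 RAD21 lists.

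Rpl36, a protein of the large subunit, had CTCF folds of 10.7 in replicate 1 and 16.0 in replicate 2, where 96.7% and 99.2% of the peaks were at or below. It was without a RAD21 peak in the 3 lists.

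Rps24, of the small subunit and also mutated in Diamond-Blackfan anaemia, had CTCF in both replicates and no RAD21. The folds were 9.01 and 11.5 at Rps24, with 87.5% and 87.6% of the peaks at or below. The start of Rps24 is shared with another protein-coding gene, since that of Polr3a, a subunit of RNA polymerase III, lies 67 bp upstream on the other strand. The CTCF peak of Rps24 covered 24486961 to 24487261 on chromosome 14 in replicate 2 and so spans both starts.

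Rpl10a, on chromosome 17, was the one gene with both a top CTCF peak and RAD21. Its CTCF folds were 6.96 and 13.5, so the peak stood above 58.8% of the list in one replicate and 95.9% in the other. RAD21 had a fold of 5.11 in replicate 2, at or above 12.2% of the list, and 6.33 in the wild-type library, at or above 71.6%, and no peak in replicate 1. The summits of CTCF and RAD21 at Rpl10a lay between -20 bp and 18 bp from the start.

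At Rpl11, the partner of Rpl5 in the 5S particle, CTCF had folds of 8.68 and 9.95. Of the peaks of these lists, 84.5% and 76.1% were at or below. RAD21 had a fold of 4.84 at Rpl11 in replicate 2, with only 7.03% of the list at or below, and 5.18 in wild-type limbs, with 58.6%. The summits lay between -91 bp and -11 bp from the start. Rpl5 and Rpl11 thus differed in whether a RAD21 peak was called, although CTCF was more enriched at Rpl5 in both replicates. In RAD21 replicate 1 neither gene had a peak, and the lists hold no RAD21 value for Rpl5.

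Rpl7, of the large subunit, had its peaks farther from the start. At Rpl7 CTCF had a fold of 5.41 in replicate 1, with 25.4% of the list at or below, and no peak in replicate 2. RAD21 had folds of 4.76 in replicate 2 and 5.00 in wild-type limbs, with 5.87% and 56.1% at or below. The CTCF call of Rpl7 is the weakest of the 5 genes with RAD21, and its RAD21 peak counts as on CTCF through replicate 1 alone. Rpl37 had CTCF folds of 5.52 and 8.58, with 27.7% and 61.8% of the peaks at or below. Its RAD21 peak in wild-type limbs had a fold of 2.56, with 7.63% of the list at or below.

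**Figure D3:**
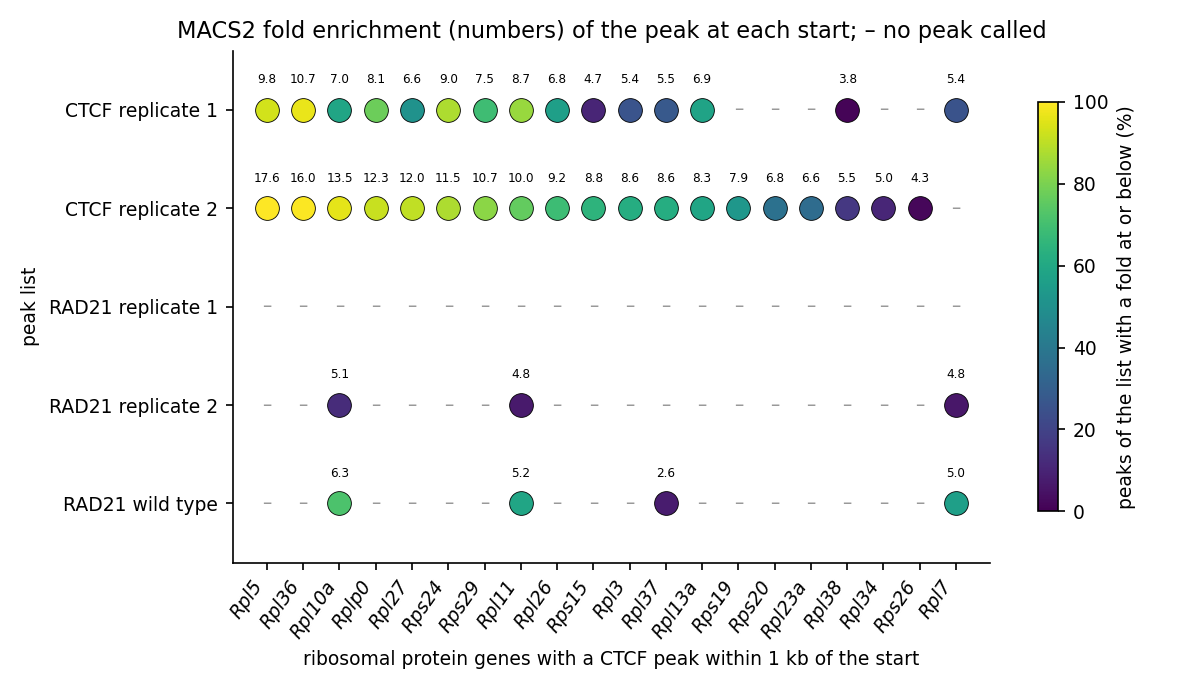
MACS2 fold enrichment (numbers, authors' values) of the peak at 20 of the 23 ribosomal protein genes with a CTCF peak (horizontal axis, ordered by replicate 2) in each of the 5 mm10 lists (vertical axis), coloured by the share of peaks in the list with a fold at or below (%), with a dash where no peak was called. Of the genes drawn, Rpl10a has the strongest CTCF peak of replicate 2 among those with a RAD21 peak.

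A further 13 genes had CTCF peaks without RAD21. Those with a peak in both replicates were Rpl3, Rpl13a, Rpl26, Rpl27, Rpl38, Rplp0, Rps15 and Rps29, whose folds were between 3.80 at Rpl38 and 8.10 at Rplp0 in replicate 1 and between 5.48 at Rpl38 and 12.3 at Rplp0 in replicate 2. Rpl38, whose loss in mice alters the translation of Hox transcripts and the patterning of the skeleton, thus had the lowest folds of the group in both replicates, with 0.969% and 16.1% of the peaks at or below. Rplp0 encodes the base of the ribosomal stalk, which recruits elongation factors. The 5 genes found in replicate 2 alone had folds between 4.27 at Rps26 and 7.88 at Rps19.

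As a whole, the CTCF peaks of the ribosomal protein genes had a median fold of 6.94 in replicate 1, where the peaks at all protein-coding starts had 6.99 and all peaks 6.52. In replicate 2 these medians were 9.16, 8.48 and 7.63. The 4 RAD21 peaks of replicate 2 had a median fold of 4.97, with a median of 9.64% of the list at or below, whereas the RAD21 peaks at all protein-coding starts had a median fold of 6.32, with 34.5% at or below. In wild-type limbs the 5 RAD21 peaks had a median fold of 5.18, with a median of 58.6% of the list at or below. Those of all starts had 3.40, with 28.0% at or below.

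The share of CTCF sites with RAD21 was then compared directly. Of the 23 ribosomal protein genes with a CTCF peak, 4 had a RAD21 peak within the same distance in transgenic limbs, or 17.4%, beside 33.4% of the 2592 starts of all genes with a CTCF peak. All 4 came from replicate 2, with 33.1% of all such starts, and 0 from replicate 1, with 7.87%. In wild-type limbs it was 5 of 23, or 21.7%, beside 50.4%, where the CTCF peaks are still those of the transgenic ChIPmentation, so that CTCF and RAD21 come from different genotypes and protocols. Of the 16 mitochondrial ribosomal protein genes with CTCF, 43.8% had RAD21 in transgenic limbs and 50.0% in wild-type limbs. Where the fold of the CTCF peak was above the median of its list, RAD21 stood at 3 of 17 ribosomal protein genes in transgenic limbs, or 17.6%, and at 45.1% of the 1453 starts of all genes. In wild-type limbs it stood at 4 of those 17, or 23.5%, and at 61.7% of all such starts. For CTCF peaks at or below the median fold the shares were closer, with 1 of 6 ribosomal protein genes, or 16.7%, in either genotype, beside 18.4% of all such starts in transgenic and 36.1% in wild-type limbs. Where a motif was called, 3 of the 18 ribosomal protein genes had RAD21 in either genotype, or 16.7%, beside 37.1% and 53.6% of all starts with a motif in transgenic and wild-type limbs. Of the 5 genes without a motif, 1 had RAD21 in transgenic limbs, or 20.0%, beside 23.5%, and 2 in wild-type limbs, or 40.0%, beside 41.9%. Among the 14 genes with the CTCF summit between 250 bp upstream and 50 bp downstream of the start, 2 had RAD21, or 14.3%, in either genotype, beside 33.8% and 48.4% of all starts. The differences rest on few genes and were not tested.

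**Figure D4:**
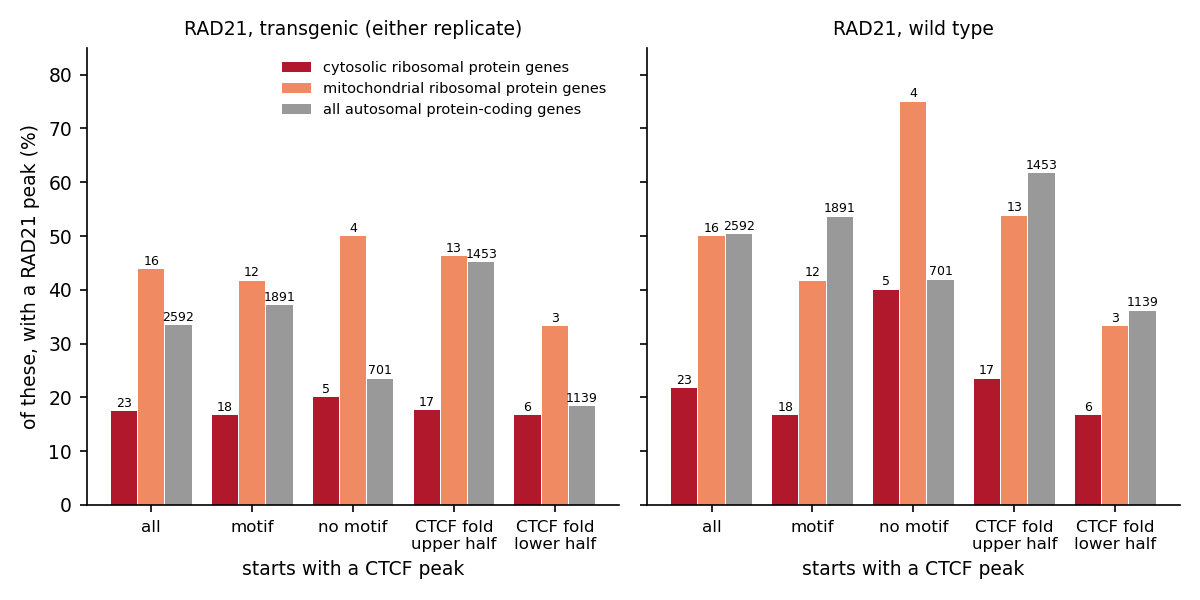
Of gene starts with a CTCF peak, the share with a RAD21 peak (vertical axis, %) in transgenic limbs (left) and in the wild-type library (right), with CTCF from transgenic limbs in both, for cytosolic and mitochondrial ribosomal protein genes and all autosomal protein-coding genes, over all such starts, those with and without a CTCF motif, and CTCF peaks above and below the median fold of their list (horizontal axis). Numbers above the bars are the starts with CTCF in each set, and cytosolic ribosomal protein genes had RAD21 at 17.4% and 21.7% of theirs.

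Peaks were then counted farther from the start. Within 1 kb the transgenic RAD21 shares given above, 5.26% of the ribosomal protein genes and 5.14% of all genes, were close to each other. Within 2 kb of the start, RAD21 peaks of transgenic limbs stood at 5.26% of the ribosomal protein genes and at 7.21% of all genes, and wild-type RAD21 peaks at 6.58% and 12.7%. Within 5 kb the transgenic shares were 13.2% and 12.4%, and the wild-type shares 17.1% and 19.3%. Within 10 kb RAD21 peaks of transgenic limbs stood at 36.8% of the ribosomal protein genes and 20.5% of all genes, and wild-type RAD21 peaks at 43.4% and 28.9%. CTCF peaks stood within 10 kb at 76.3% of the ribosomal protein genes and 39.1% of all genes, and within 50 kb at 98.7% and 77.8%. The median distance from the start to the nearest CTCF peak of replicate 2 was 5251 bp for the ribosomal protein genes and 17248 bp for all genes. For RAD21 it was 87331 bp and 155786 bp in replicate 1, which had the fewest peaks, 13713 bp and 34742 bp in replicate 2, and 11080 bp and 24213 bp in wild-type limbs. Rps28 and Rpl41, without a peak at the start, had CTCF peaks at 2333 bp and 2651 bp in replicate 1 and wild-type RAD21 peaks at 2283 bp and 2690 bp.

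**Figure D5:**
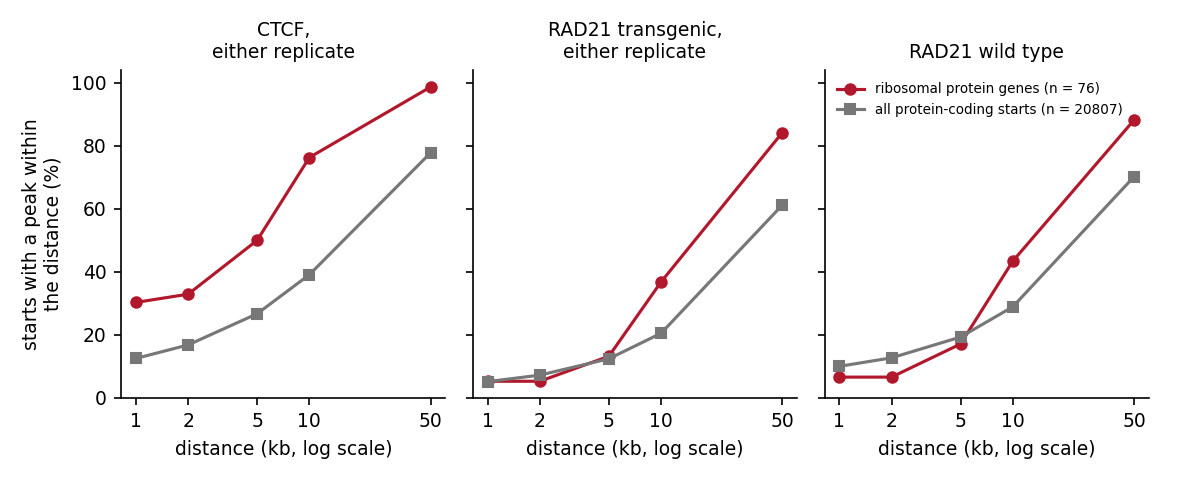
Share of gene starts with a peak within a given distance (vertical axis, %) against that distance (horizontal axis, kb, log scale) for the 76 ribosomal protein genes and all 20807 autosomal protein-coding genes. For CTCF the ribosomal protein genes are higher at each distance, whereas for RAD21 they are near or below all genes at 1, 2 and 5 kb and higher at 10 and 50 kb.

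Features of the promoters that the choice of genes had not used were compared last, over 250 bp before and 50 bp after each start. The ribosomal protein genes with CTCF had a median GC content of 58.0%, those without had 54.3%, all starts with CTCF had 60.0% and all starts 55.3%. CTTTCC, a tract of the kind found at 5' TOP starts, was read on the strand of the gene and stood in 25.0% of the 76 promoters and 14.1% of all. CCGGAAG, which ETS factors bind, stood on either strand in 28.9% and 11.0%, and AAGATGGCG, bound by YY1, in 5.26% and 1.70%. GGGCGG, the letters of SP1 sites, stood on either strand in 42.1% and 43.7%, and TATAAA stood on the strand of the gene in 6.58% and 8.70%. By CTCF, CTTTCC stood in 21.7% of the promoters with CTCF and 26.4% of those without, CCGGAAG in 26.1% and 30.2%, AAGATGGCG in 4.35% and 5.66%, GGGCGG in 47.8% and 39.6% and TATAAA in 8.70% and 5.66%. In the same order, these words stood in 13.6%, 14.4%, 2.01%, 57.4% and 4.51% of the promoters of all 2592 starts with CTCF. The SP1 letters were thus more frequent with CTCF over all genes too, beside 43.7% of all promoters. The core of the CTCF motif, on either strand, stood in 26.1% of the ribosomal protein promoters with CTCF and 9.43% of those without. Over all genes it stood in 24.3% of the promoters with CTCF and 9.61% of all promoters. The matches are descriptions of the sequence and not sites.

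Shared starts and intronic RNAs were counted as well. Another protein-coding start lay within 1000 bp of 15 of the ribosomal protein genes, of which 2, Rpl3 and Rps24, had CTCF, or 13.3%. Of the 61 with no such neighbour, among them Rpl7, 21 had CTCF, or 34.4%, whereas over all genes these shares were 13.4% and 12.3%. Of 27 genes with an annotated small nucleolar RNA inside, 7 had CTCF, or 25.9%, and of 49 without one 16 had, or 32.7%. Small nucleolar RNAs were counted in the ribosomal protein genes only, so no shares over all genes stand beside these.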

How the data were processed

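Reads had been aligned to mm10 and to a custom genome that holds the insertion, and each replicate was given to MACS2 (2.1.1.20160309 in the submitters' processing notes, beside Bowtie2 2.3.4.1 and 2.3.5 and cutadapt 1.16) with its defaults. The values the authors deposited for a peak are its fold enrichment (a ratio), the -log10 p-value and the -log10 q-value. The control given to MACS2 is not given in the sources used here.

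From these lists, a gene was given a peak where any base lay within 1000 bp of its 5' end in GENCODE M21. RAD21 was on CTCF where it overlapped by 1 bp or more a CTCF peak of either replicate. Transgenic counts take either replicate. The lists hold no reads, so neither depth nor its precision is known. Full values are given for genes with a peak in all 5 mm10 lists (none), with RAD21 off CTCF in both genotypes (none), and for the 5 highest folds of each list, apart from 3 genes whose values are not reported here. The genes and lists were chosen with earlier results of these data known. The motif model, which was seeded with the known core of the CTCF motif, the split by the median fold, the distances above 2 kb, and the counts by strand, neighbouring start and small nucleolar RNA were chosen after the data were seen. Planted overlaps and motifs in simulated data tested the code. It ran in Python 3.11.15 with pysam 0.24.0, samtools 1.23.1, pandas 2.3.3, numpy 2.4.6 and matplotlib 3.10.9.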

Additional observations from a re-analysis of the deposited data

How the results depend on the processing

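The count of 23 ribosomal protein genes with a CTCF peak stayed within 1.5 times under 11 of 12 alternatives. Among these were other distances, stricter q-values, a peak in both replicates and the custom genome. With a peak in both replicates it was 17, beside 9.36% of all starts. On the custom genome it was 21 of the 68 genes off chromosomes 2 and 10, beside 12.7%. Of those genes, mm10 had the same ones per CTCF list. Without replicate 1 it was 22, beside 11.3%, and without replicate 2 it was 18, beside 10.6%. With only the top 4102 peaks of each list it was 6, beside 3.92% of all starts, since fewer peaks are counted. The RAD21 counts are small and rest on replicate 2. Of the 4 genes with RAD21 in transgenic limbs, all of them on CTCF, 2 were left within 500 bp, beside 3.74% of all starts. At a -log10 q of at least 5 it was 1, beside 3.43%, and at 10 or more it was 0, beside 1.62%. It was also 0 with a peak in both replicates required, beside 0.952%, and among the top peaks, beside 1.47%. Leaving out RAD21 replicate 2 gave 0, beside 1.12%, and leaving out RAD21 replicate 1 gave 4, beside 4.97%. On CTCF, 3 were left without CTCF replicate 1, beside 4.06%, and 4 without CTCF replicate 2, beside 3.87%. In wild-type limbs, 3 of the 5 genes with RAD21 were left within 500 bp, beside 7.97% of all starts. Among the top peaks it was 0, beside 1.17%. For RAD21 on CTCF these counts were the same, beside 4.58% and 0.654%. At a -log10 q of at least 10, 3 were left on CTCF, beside 4.03%. RAD21 off CTCF, at 0 genes, came to 1 without CTCF replicate 1 in either genotype. The share of all starts was then 1.11% in transgenic and 4.32% in wild-type limbs. Without CTCF replicate 2 it was 0 genes in either genotype, beside 1.31% and 4.59%. In wild-type limbs it was also 1 with CTCF in both replicates required, beside 4.87%. The count was again 1 at a -log10 q of at least 5, beside 3.63%, and at least 10, beside 2.90%. In these settings a weak CTCF peak no longer counts. With the starts of all coding transcripts, Rps14 was added to the genes with CTCF and RAD21. CTCF then stood at 24 genes, beside 15.2% of all starts. Transgenic RAD21 stood at 5, beside 6.45%, and wild-type RAD21 at 6, beside 12.1%. On the custom genome, RAD21 replicate 1 had a peak at 1 gene, Rps29, where it had none on mm10. Transgenic RAD21 thus stood at 5 of the 68 genes off chromosomes 2 and 10, beside 4.69% of all starts there. On CTCF it was also 5, beside 3.98%. No paired analysis was possible because no comparison between groups of samples was tested.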
